A study of Danio rerio with 21 samples.

Results

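The levels of 10 genes with names of heat shock proteins or chaperones were followed here. Those with names of small heat shock proteins were hspb1, hspb2, hspb6, hspb7, hspb8, hspb11 and hspb15. The others were the mitochondrial chaperonin pair hspd1 and hspe1, and the collagen chaperone gene serpinh1b. The 10 genes were chosen as the rows of the expression table that carry their NCBI Gene numbers (368243, 550439, 792610, 450019, 791580, 790918, 555589, 282676, 58041 and 30449, in that order), and all were found among 26225 genes. The name hspb11 is also an older name of hspb9l, a gene with its own row, and hspb11 here means gene 790918. The study asked how raising young zebrafish in warm water alters the transcriptome while the gonads differentiate. Fish of the AB strain, labelled as wild type, were kept at 28 °C, and part of them were moved to 35 °C between 25 and 35 days post-fertilization (dpf) and then returned to 28 °C. T35D fish were sampled at 35 dpf at the end of the heat, T45D fish at 45 dpf and T60D fish at 60 dpf, and unheated fish of 25, 35, 45 and 60 dpf gave the controls (C25D, C35D, C45D and C60D), C25D being the state before heating. All 7 groups came from the spontaneous mating of several females and males of 1 family. Each of the 3 libraries of a group was made from several whole fish pooled, so that a library mixes individuals. The groups T35D, T45D and T60D differ both in age and in days since heat, which cannot be told apart.

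Small heat shock proteins bind proteins that begin to unfold and hold them in a state that other chaperones can refold, and several of them are most abundant in muscle, where they protect the contractile apparatus. Hsp60, the product of hspd1, forms a barrel in the mitochondrial matrix in which imported proteins fold, and Hsp10, the product of hspe1, is the lid of that barrel. Hsp47, the product of serpinh1b, resides in the endoplasmic reticulum and binds procollagen until it leaves for the Golgi. Cytosolic and mitochondrial stress responses are known to raise different sets of these genes.

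Library totals ranged from 11875436 to 16471158 counts, so that 3 counts stood for 0.155 to 0.405 CPM (counts per 1000000, scaled with TMM factors of all 21 libraries). The libraries were not alike in tissue content, although all were labelled as whole fish. The summed level of 35 lens marker genes was under 20 CPM in 7 libraries, namely C35D-1, T45D-1, T45D-3, T60D-2 and all 3 of C60D, against 162 to 5524 CPM in the 3 T35D libraries and 3781 to 6181 CPM in C45D. The summed level of 19 liver markers was 295 CPM in T45D-3, 321 CPM in T60D-2 and 349 to 925 CPM in C60D, against 5815 CPM or more in every other library. The summed level of 19 oocyte markers was 29936 and 23131 CPM in T35D-2 and T35D-3, 17226 CPM in T45D-2 and 12234 and 15658 CPM in T60D-2 and T60D-3, whereas no other library exceeded 2606 CPM. None of these 19 markers was at 0 in those 5 libraries, and 0 to 7 were in the others. T45D-3 had the largest sum of fast skeletal muscle markers, 805773 CPM, and its TMM factor was the lowest at 0.496. This factor raises all CPM of T45D-3 above counts per 1000000 of its own total. Its marker sum is thus not its share of counts. The 10 genes with the most counts held 40.4% of the counts in T45D-3. Lower RNA per cell and fewer cells of a type cannot be told apart in such bulk samples.

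Compared per transcript length (FPKM), hspe1 was the most abundant of the 10 genes, with a median of 66.8 FPKM over the 21 libraries. It was followed by serpinh1b at 57.9, hspb1 at 50.6, hspd1 at 36.3, hspb6 at 19.9, hspb2 at 13.6, hspb8 at 9.23, hspb7 at 4.54, hspb11 at 3.04 and hspb15 at 0.60 FPKM. The genes differed in how far their levels ranged. The highest library was 3.39 times the lowest for hspe1 and 5.50 times for hspd1 on the CPM scale, against 87.0 times for hspb6 and 89.8 times for hspb8. For all 10 genes the group means were put in order, and only 6 of the 60 pairs of neighbours in these orders did not overlap in their single values. These were C45D over C35D for hspb6, C45D over C60D for hspb8, hspd1 and serpinh1b, C35D over C45D for hspe1, and T60D over C45D for hspb11.

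**Figure D1:**
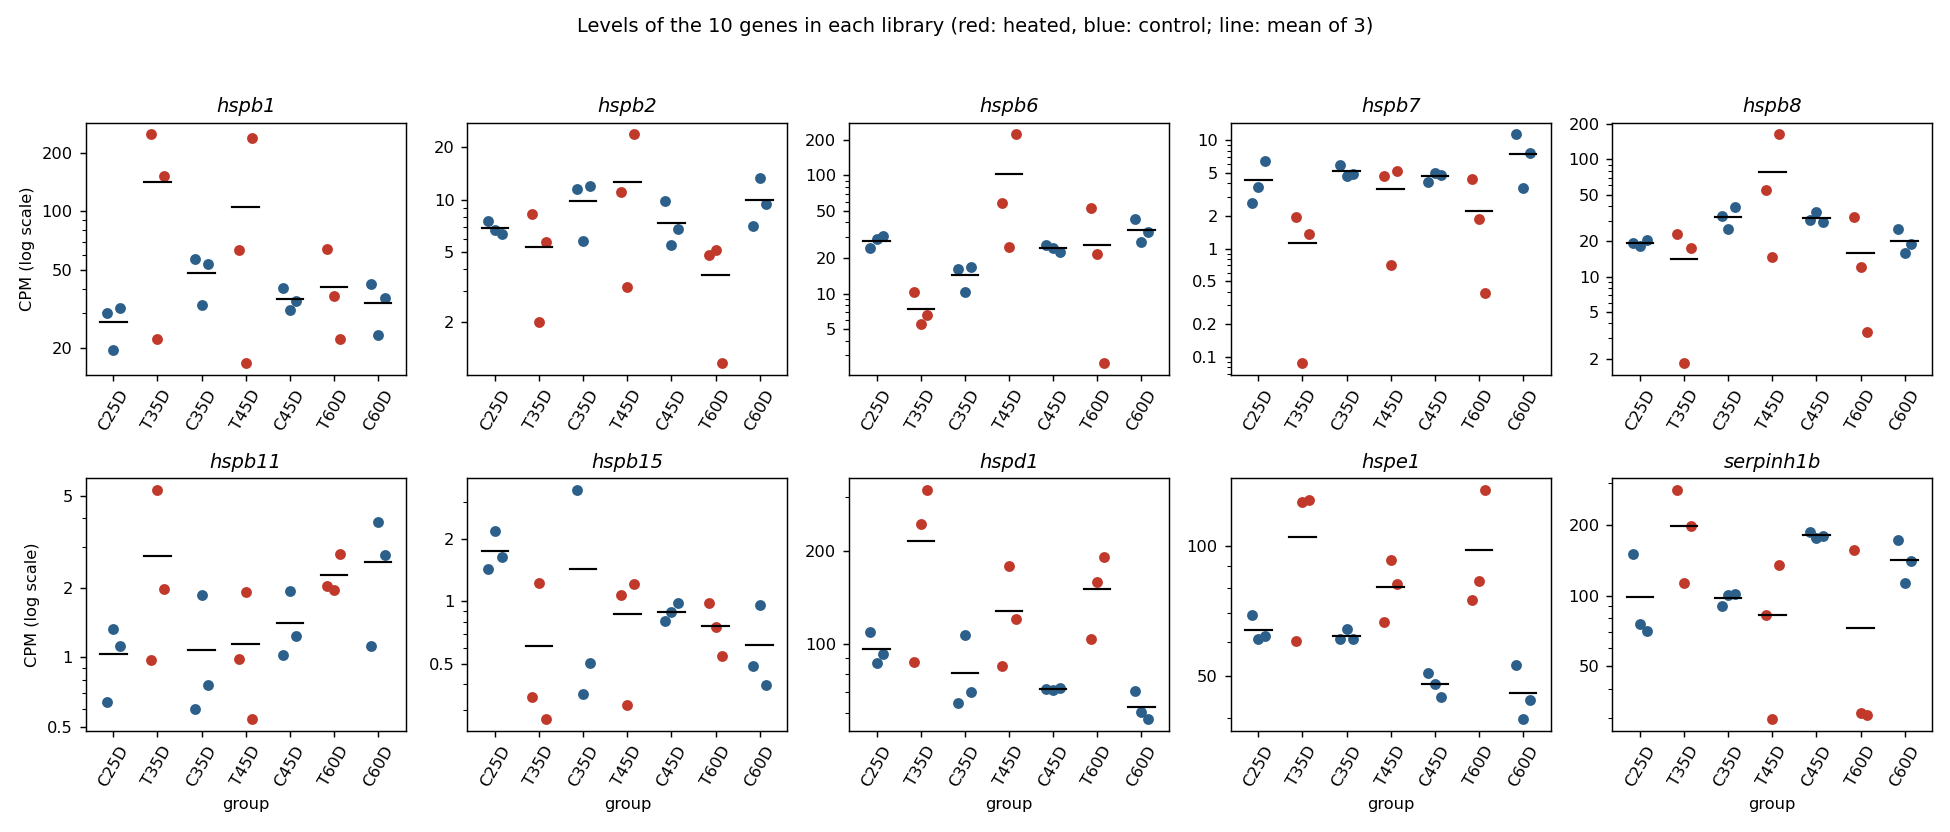
Level of each of the 10 genes in each library, in CPM on a log scale, by group, with red points for heated and blue points for control libraries and a black line at the mean of 3. Heated libraries spread wider than control libraries for hspb1, hspb2, hspb6, hspb7 and hspb8, and hspb8 spans 1.83 to 164 CPM in heated fish.

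At the end of the heat, the chaperonin genes and hspb1 stood higher on average in T35D than in C35D, and the muscle-associated hspb2, hspb6, hspb7 and hspb8 stood lower. After the return to 28 °C, hspd1 and hspe1 were higher in every T45D and T60D library than in any control library of that age on the TMM-scaled CPM. So were 6.87% and 11.8% of all genes tested at 45 and 60 dpf. At 45 dpf, however, the groups overlapped with counts scaled to library size alone or as FPKM. There serpinh1b was lower in every T45D library, as were 19.3% of all genes tested on the TMM-scaled CPM. None of these differences passed the threshold of an adjusted p of 0.05 in the quasi-likelihood test of edgeR, adjusted by Benjamini-Hochberg over all genes. This test called 0 of the 9 members tested at 35 dpf, 0 of 10 at 45 dpf and 0 of 9 at 60 dpf, with 0% of all genes called in either direction at each age. DESeq2 on the same pairs called 0, 0 and 1 members, the 1 being hspd1, higher at 60 dpf. It called 4.06% of all genes higher and 2.39% lower at 35 dpf, 0.611% and 2.01% at 45 dpf, and 9.76% and 2.48% at 60 dpf. At an unadjusted p of 0.05 or less, edgeR gave 1 member higher and 1 lower at 35 dpf, against 15.8% of all genes higher and 8.33% lower. It gave 3 members higher at 45 dpf, against 5.26% of all genes, and 2 higher at 60 dpf, against 16.1%, with 0 lower at both ages, against 10.5% and 9.53%. The count at 45 dpf depended on the setting. With library size alone 0 members were higher and 1 lower there, against 0.507% and 18.2% of all genes. With a replicate block 0 were higher and 0 lower, beside 251 and 1590 of 20125 genes. On the log2 scale the members tested had median fold changes of 0.74, 0.83 and −0.32 at 35, 45 and 60 dpf, and all genes tested had 0.27, 0.12 and −0.02. The members' median did not keep its sign. At 35 dpf it was −0.15 in DESeq2, −0.05 without a filter and −0.06 in 1 fit of all libraries, where hspb15 was tested too, and −0.24 without the 5 libraries rich in oocyte markers. At 45 dpf it was −1.11 among libraries with lens markers, and at 60 dpf 0.69 without the 5 libraries. The lowest adjusted p of any gene in edgeR was 0.192, 0.213 and 0.0545 at the 3 ages, and a missed threshold does not show that levels were alike. The study's methods call the libraries of a group independent biological replicates, so the p-values rest on the spread between pools of fish.

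**Figure D2:**
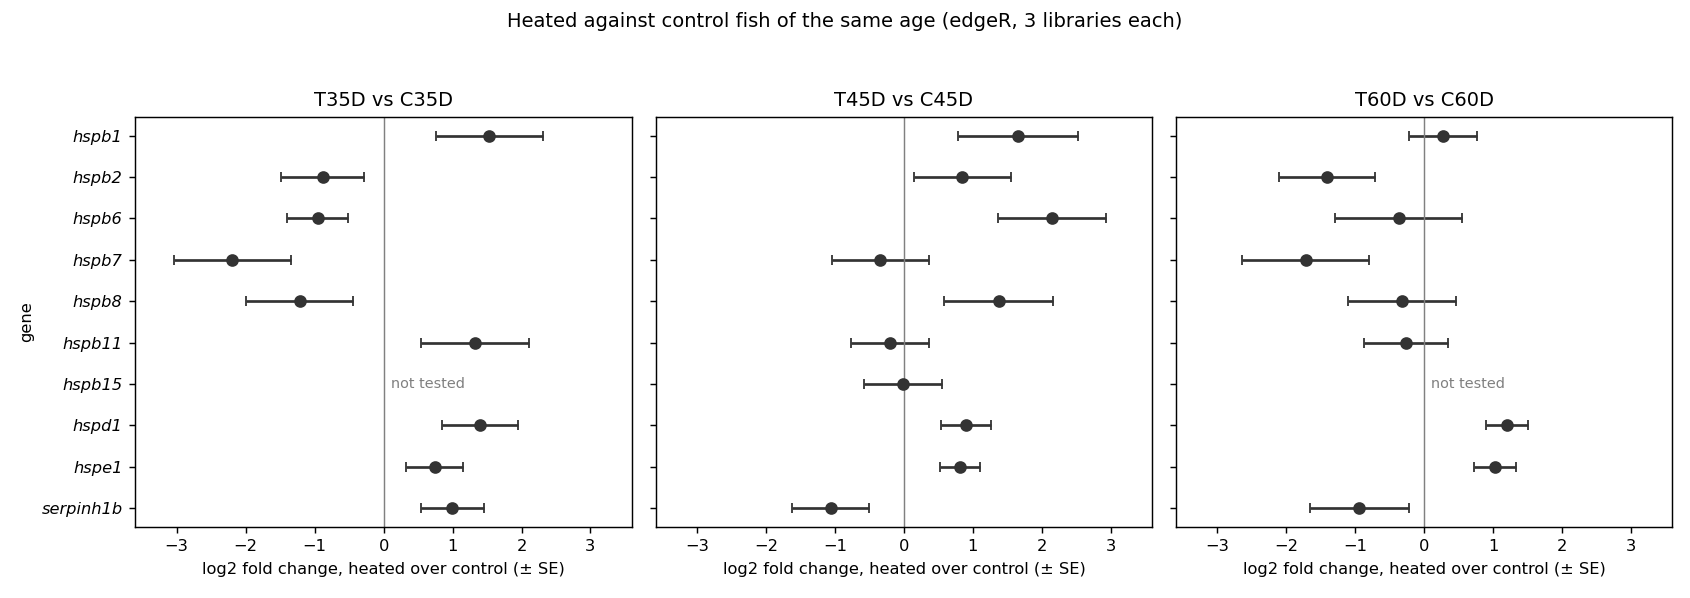
Log2 fold change of heated over control fish of the same age for each gene, with the standard error from edgeR (3 libraries in each group). At 35 dpf hspb7 has the lowest value, −2.19, at 45 dpf hspb6 the highest, 2.15, and hspd1 and hspe1 lie above 0 at all 3 ages.

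Both chaperonin genes stood higher on average in heated fish at all 3 ages. hspd1, the gene of Hsp60, had 87.8, 244 and 315 CPM in the T35D libraries, against 64.5, 107 and 70.19 CPM in C35D. T35D-2 and T35D-3 stood above all controls, while T35D-1 lay within their range, and the log2 fold change was 1.40 ± 0.55 (SE, edgeR; adjusted p = 0.196). At 45 dpf hspd1 had 84.7, 179 and 121 CPM in T45D, against 71.5, 71.1 and 72.1 CPM in C45D. The groups did not overlap on this scale, and the log2 fold change was 0.90 ± 0.37 (SE, edgeR; adjusted p = 0.311). In FPKM, however, T45D-1 and T45D-3 had 27.5 and 23.1 of hspd1, below the 27.9 to 36.0 of C45D, and T45D-2 had 74.4. At 60 dpf it had 104, 158 and 191 CPM in T60D, against 70.6, 60.3 and 57.3 CPM in C60D. All heated libraries stood above all controls in CPM and in FPKM. The log2 fold change was 1.2 ± 0.31 (SE, edgeR; adjusted p = 0.145), and DESeq2 called this difference at an adjusted p of 0.0380. In 1 edgeR fit of all 21 libraries hspd1 and hspe1 were called at 60 dpf (adjusted p = 0.0465 and 0.0333), beside 8.68% of all genes higher and 5.37% lower.

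hspe1, whose product caps the Hsp60 barrel, had 60.3, 127 and 128 CPM in T35D, against 61.0, 64.5 and 61.0 CPM in C35D. T35D-1 was the lowest of the 6 libraries and the other heated libraries stood far above the controls, with a log2 fold change of 0.74 ± 0.42 (SE, edgeR; adjusted p = 0.292). In T45D it had 67.0, 93.0 and 82.0 CPM, against 51.0, 48.1 and 44.9 CPM in C45D, without overlap on this scale and with a log2 fold change of 0.81 ± 0.29 (SE, edgeR; adjusted p = 0.274). In FPKM these groups overlapped, and T45D-3 at 41.7 lay below the 53.1 to 65.0 of C45D. In T60D hspe1 had 75.3, 83.3 and 135 CPM, against 53.2, 39.9 and 44.1 CPM in C60D, without overlap in CPM or FPKM (log2 fold change 1.02 ± 0.31, SE, edgeR; adjusted p = 0.147). The ratio of hspd1 to hspe1 in FPKM was 0.73 ± 0.19 in T35D, 0.58 ± 0.13 in T45D, 0.59 ± 0.11 in T60D and 0.48 ± 0.12, 0.56 ± 0.04 and 0.52 ± 0.04 in C35D, C45D and C60D (SD, n = 3 each), with single values between 0.397 and 0.920. In the zebrafish RefSeq gene list (assembly GRCz12tu) hspd1 and hspe1 are direct neighbours, and of all pairs among the 10 genes they were the most alike over the 21 libraries, with a Pearson r of log2 CPM of 0.94.

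The 5 libraries with the largest oocyte marker sums were also the 5 with the highest hspd1 and the 5 with the highest hspe1. In the other 4 heated libraries, T35D-1, T45D-1, T45D-3 and T60D-1, hspd1 had 87.8, 84.7, 121 and 104 CPM and hspe1 had 60.3, 67.0, 82.0 and 75.3 CPM. Without those 5 libraries, in 1 edgeR fit of the other 16 in which the single T35D and T60D libraries were assumed to vary like the rest, the log2 fold change of hspd1 was 0.09, 0.58 and 0.77 at 35, 45 and 60 dpf (adjusted p = 0.920, 0.108 and 0.085). That of hspe1 was −0.08, 0.70 and 0.76 (adjusted p = 0.881, 0.0206 and 0.0224). At 35 and 60 dpf these values set 1 heated library against the controls. hspe1 was called at 45 and 60 dpf, beside 4.70% of all genes called higher and 7.26% lower at 45 dpf and 11.0% and 2.54% at 60 dpf in this fit. The part of oocyte content in the differences was not tested. At 45 dpf the call rests on T45D-1 and T45D-3, both without lens markers, of which T45D-3 also had few liver markers, while C45D had both. In FPKM T45D-1 and T45D-3 had 58.6 and 41.7 of hspe1, against 53.1 to 65.0 in C45D. They did not stand above these controls on that scale. At 60 dpf the control libraries also lacked liver and lens markers, while T60D-1 and T60D-3 did not, so heat and tissue content cannot be told apart there.

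**Figure D3:**
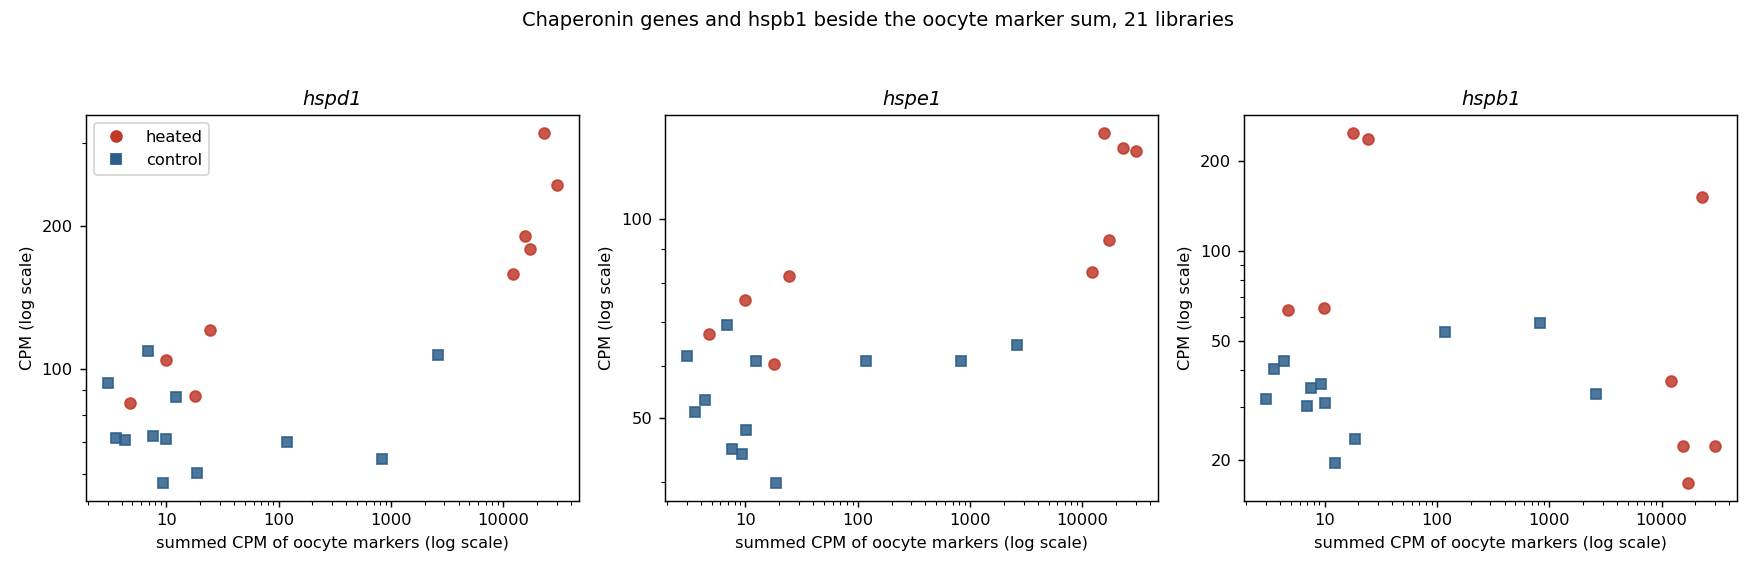
CPM of hspd1, hspe1 and hspb1 (y axis, log scale) against the summed CPM of 19 oocyte markers (x axis, log scale), with a red circle for each heated and a blue square for each control library. The 5 libraries above 10000 CPM of oocyte markers have the 5 highest values of hspd1, from 158 to 315 CPM, whereas 4 of them have 16.7 to 36.8 CPM of hspb1.

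hspb1, the gene of Hsp27 and the most abundant small heat shock gene of the 10, had 249, 22.1 and 152 CPM in T35D, against 57.2, 33.2 and 53.7 CPM in C35D. T35D-1 and T35D-3 exceeded every control and T35D-2 lay below every control, and the log2 fold change was 1.53 ± 0.78 (SE, edgeR; adjusted p = 0.253). In T45D hspb1 had 63.4, 16.7 and 237 CPM, against 40.3, 31.1 and 34.8 CPM in C45D. The groups overlapped in the same way, with T45D-2 lowest, and the log2 fold change was 1.65 ± 0.87 (SE, edgeR; adjusted p = 0.377). In T60D it had 64.3, 36.8 and 22.2 CPM, against 42.6, 23.4 and 35.9 CPM in C60D, a log2 difference of 0.27 ± 0.50 (SE, edgeR; adjusted p = 0.719). The lowest heated library at each age, T35D-2, T45D-2 and T60D-3, was one of the 5 rich in oocyte markers, and without these 5 the log2 fold change of hspb1 was 2.33, 2.14 and 0.96 (adjusted p = 0.130, 0.0186 and 0.290). At 45 dpf, where this fit called 4.70% of all genes higher and 7.26% lower, the value rests on T45D-1 and T45D-3, both without lens markers. Among the libraries with lens markers, where T45D-2 alone stood for T45D and was assumed to vary like the other groups, it was −1.10 (adjusted p = 0.449).

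The small heat shock genes linked with muscle form the next set. hspb8, whose product works with the co-chaperone Bag3 in muscle, had 23.1, 1.83 and 17.6 CPM in T35D, against 33.0, 25.5 and 39.0 CPM in C35D. All heated libraries lay below all controls, T35D-2 by far the lowest, with a log2 fold change of −1.22 ± 0.78 (SE, edgeR; adjusted p = 0.343). In T45D it had 55.1, 14.7 and 164 CPM, against 30.2, 35.5 and 29.1 CPM in C45D, with T45D-3 and T45D-1 above and T45D-2 below every control (log2 fold change 1.38 ± 0.79, SE, edgeR; adjusted p = 0.401). In FPKM T45D-1 at 15.8 lay within the 10.4 to 15.9 of C45D, and T45D-3 at 27.7 stayed above. In T60D it had 32.0, 11.98 and 3.35 CPM, against 25.7, 15.8 and 18.9 CPM in C60D, an overlapping pair of groups with a log2 fold change of −0.32 ± 0.78 (SE, edgeR; adjusted p = 0.790).

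hspb7, known from heart and skeletal muscle, was a low gene. It had 1.94, 0.087 and 1.36 CPM in T35D, against 5.95, 4.70 and 4.88 CPM in C35D, and the T35D-2 value was a single count, under the 0.261 CPM that 3 counts stand for in that library. All heated libraries lay below all controls, and the log2 fold change of −2.19 ± 0.84 was the lowest of the members at 35 dpf (SE, edgeR; adjusted p = 0.195). It had 4.66, 0.70 and 5.27 CPM in T45D, against 4.16, 5.02 and 4.83 CPM in C45D, and 4.44, 1.89 and 0.39 CPM in T60D, against 11.4, 3.67 and 7.59 CPM in C60D. Both pairs of groups overlapped, with log2 fold changes of −0.34 ± 0.70 and −1.72 ± 0.92 (SE, edgeR; adjusted p = 0.812 and 0.267). The summed level of 13 heart muscle markers was 298, 62.7 and 110 CPM in T35D-1, T35D-2 and T35D-3, against 332 to 714 CPM in C35D, and its part in the hspb7 values was not tested.

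hspb6, the gene of Hsp20, had 10.3, 5.49 and 6.54 CPM in T35D, against 16.0, 10.2 and 16.7 CPM in C35D. The groups overlapped only in that T35D-1 lay just above C35D-2, and the log2 fold change was −0.96 ± 0.44 (SE, edgeR; adjusted p = 0.222). In T45D the gene had 58.3, 24.8 and 224 CPM, against 25.6, 24.5 and 22.5 CPM in C45D. T45D-3 was the highest of all 21 libraries and T45D-2 lay within the controls, and the log2 fold change of 2.15 ± 0.79 was the highest of the members at 45 dpf (SE, edgeR; adjusted p = 0.281). In T60D it had 53.3, 21.6 and 2.57 CPM, against 42.4, 27.3 and 33.2 CPM in C60D, the heated libraries lying on both sides of the controls (log2 fold change −0.37 ± 0.92, SE, edgeR; adjusted p = 0.796).

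hspb2, a muscle gene that neighbours the crystallin gene cryabb in the RefSeq gene list, had 8.31, 2.00 and 5.72 CPM in T35D, against 11.5, 5.83 and 12.04 CPM in C35D, with a log2 fold change of −0.89 ± 0.60 (SE, edgeR; adjusted p = 0.370). It had 11.0, 3.19 and 23.6 CPM in T45D, against 9.78, 5.49 and 6.78 CPM in C45D, with a log2 fold change of 0.85 ± 0.70 (SE, edgeR; adjusted p = 0.539), and the groups overlapped at both ages. In T60D it had 4.86, 5.17 and 1.17 CPM, against 7.12, 13.2 and 9.40 CPM in C60D. There all heated libraries lay below all controls, with a log2 fold change of −1.41 ± 0.69 (SE, edgeR; adjusted p = 0.239).

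Muscle markers differed between the libraries as well, and these genes went with them in some libraries and not in others. T45D-3, the library with the largest fast muscle sum, held the highest CPM of hspb2, hspb6 and hspb8 among all 21 libraries. In FPKM its hspb2 of 19.1 lay below the 20.5 of C35D-3. T60D-3, with the lowest sum of 97458 CPM, held the lowest hspb2 and hspb6. C60D-2, however, with the second largest sum of 418122 CPM, had the lowest hspb6, hspb7 and hspb8 of C60D. Its hspb2 of 13.2 CPM was the second highest of the 21 libraries. C35D-2, with the second lowest sum of 99100 CPM, had the lowest CPM of hspb2, hspb6, hspb7 and hspb8 of C35D. In FPKM its hspb7 of 6.93 was the highest of C35D, and its hspb8 of 11.8 lay between 10.2 and 13.8. Its 25.5 CPM of hspb8 stood above the 3.35 CPM of T60D-3. The sums of the 33 fast muscle markers ranged from 105934 to 227514 CPM in T35D, from 106276 to 805773 CPM in T45D and from 97458 to 204257 CPM in T60D, against 99100 to 254591 CPM in C35D, 124163 to 236628 CPM in C45D and 140704 to 418122 CPM in C60D. The sums of 13 slow skeletal muscle markers were 631 to 1386 CPM in T35D, against 1609 to 2508 CPM in C35D, and 804 to 1953 CPM in T60D, against 2579 to 4136 CPM in C60D, so that all heated libraries lay below all controls at these ages. At 45 dpf they were 1034 to 5871 CPM in T45D, against 1594 to 2996 CPM in C45D, and overlapped. None of the fast and at most 1 of the slow markers was at 0 in any library, and the part of muscle content in the differences was not tested. Without the 5 libraries rich in oocyte markers, the log2 fold changes of hspb6 and hspb8 were −0.53 and −0.54 at 35 dpf (adjusted p = 0.693 and 0.622), 2.59 and 1.84 at 45 dpf (adjusted p = 0.0135 and 0.0166) and 0.67 and 0.70 at 60 dpf (adjusted p = 0.448 and 0.340). The calls at 45 dpf rest on T45D-1 and T45D-3, beside 4.70% of all genes called higher and 7.26% lower in that fit. In FPKM the hspb8 of T45D-1 lay within the range of C45D. With T45D-2 as the only T45D library, under the same assumption on its spread, the values were 0.02 for hspb6 and −1.11 for hspb8.

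**Figure D4:**
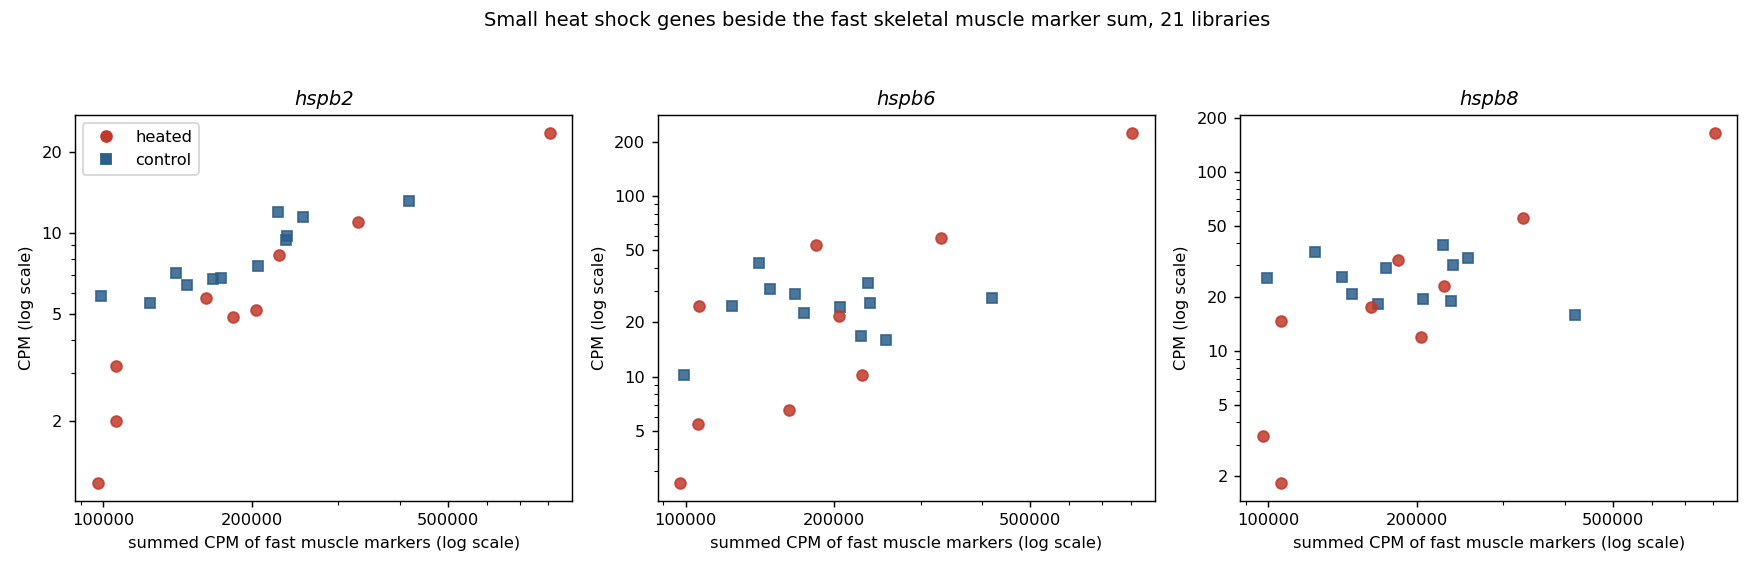
CPM of hspb2, hspb6 and hspb8 (y axis, log scale) against the summed CPM of 33 fast skeletal muscle markers (x axis, log scale), with a red circle for each heated and a blue square for each control library. T45D-3 is the point at the upper right, at 23.6, 224 and 164 CPM.

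hspb11 and hspb15 were near the lower end of what these libraries can measure. hspb11, whose human namesake encodes a subunit of the intraflagellar transport machinery of cilia, had 0.97, 5.31 and 1.97 CPM in T35D, against 0.60, 1.86 and 0.76 CPM in C35D, or 14 to 61 and 8 to 36 counts. The groups overlapped, and the log2 fold change was 1.33 ± 0.79 (SE, edgeR; adjusted p = 0.310). It ranged from 0.54 to 1.91 CPM in T45D, against 1.02 to 1.95 CPM in C45D, and from 1.96 to 2.81 CPM in T60D, against 1.12 to 3.86 CPM in C60D. The log2 fold change was −0.20 ± 0.56 at 45 dpf and −0.26 ± 0.61 at 60 dpf (SE, edgeR; adjusted p = 0.867 and 0.782). hspb15 never exceeded 3.42 CPM, which stood for 46 counts in C35D-1, and it did not pass the filter on low counts of the edgeR test at 35 and 60 dpf. DESeq2, which used no such filter, gave log2 fold changes of −1.46 ± 1.07 and 0.34 ± 0.90 there (SE; adjusted p = 0.379 and 0.812). It ranged from 0.27 to 1.22 CPM in T35D, against 0.36 to 3.42 CPM in C35D. At 45 dpf it had 0.87 ± 0.48 CPM in T45D and 0.89 ± 0.09 CPM in C45D (SD, n = 3 each).

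serpinh1b was the one member whose groups lay apart without overlap in opposite directions at 2 ages on the TMM-scaled CPM. It had 281, 113 and 197 CPM in T35D, against 90.6, 100 and 102 CPM in C35D. All heated libraries lay above all controls on this scale, with a log2 fold change of 1.00 ± 0.46 (SE, edgeR; adjusted p = 0.221). In T45D it had 82.9, 29.8 and 134 CPM, against 186, 176 and 180 CPM in C45D. There all heated libraries lay below the closely spaced controls, and the log2 fold change was −1.06 ± 0.56 (SE, edgeR; adjusted p = 0.375). In T60D it had 156, 31.7 and 30.9 CPM, against 172, 113 and 140 CPM in C60D, with T60D-1 among the controls and a log2 fold change of −0.94 ± 0.72 (SE, edgeR; adjusted p = 0.403). Its paralog serpinh1a had log2 fold changes of −0.14 ± 0.54, −0.40 ± 0.48 and −0.74 ± 0.59 at 35, 45 and 60 dpf (SE, edgeR; adjusted p = 0.886, 0.675 and 0.424). In FPKM serpinh1b exceeded serpinh1a by 4.84 to 8.15 times in T35D, against 2.19 to 3.09 times in C35D. In T45D the same ratio was 2.07 to 2.65, against 3.52 to 4.23 in C45D, and in T60D it was 3.00 to 5.80, against 4.80 to 8.56 in C60D. Since both genes were read in the same library, the scaling between libraries does not enter this ratio. It separated heated from control libraries of the same age at 35 and at 45 dpf. How often other pairs of genes do so was not counted. The highest ratio at 35 dpf, that of T35D-2, came with low serpinh1a, 7.10 FPKM against 18.9 to 25.5 in C35D. The serpinh1b of T35D-2, 57.9 FPKM, lay within the 43.6 to 72.4 of C35D. In T35D-1 and T35D-3 serpinh1b had 162 and 94.3 FPKM, above C35D. T45D-1 and T45D-3 lacked lens markers, unlike C45D. Before heating, in C25D, the ratio was 3.72 to 6.86, which overlapped T35D. Reads shared by the 2 paralogs were divided by the authors' counting, so each level carries that uncertainty.

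Counted over the members on the CPM scale, 1 of 10 lay without overlap higher at 35 dpf (serpinh1b), against 10.0% of all genes tested, and 2 lower (hspb7 and hspb8), against 14.2%. At 45 dpf 2 lay higher (hspd1 and hspe1), against 6.87%, and 1 lower (serpinh1b), against 19.3%. At 60 dpf 2 lay higher (hspd1 and hspe1), against 11.8%, and 1 lower (hspb2), against 16.9%. The counts at 35 and 45 dpf depend on the scaling between libraries. With counts scaled to library size alone, or as FPKM, 0 members lay higher at 35 dpf and 3 lower (hspb6, hspb7 and hspb8), and 0 higher at 45 dpf and 2 lower (hspb7 and serpinh1b), whereas the 60 dpf members were the same. Scaled to library size alone, 4.28% of all genes lay higher and 16.0% lower at 35 dpf, 0.850% and 34.8% at 45 dpf and 13.8% and 10.0% at 60 dpf. At 45 dpf library size alone moved the median log2 fold change of all genes to −0.43, against 0.12 with TMM.

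At 35 and 60 dpf the calls of members turned on a single library. Without T35D-1, the heated library of 35 dpf with few oocyte markers, edgeR called hspd1 higher (log2 fold change 1.56, adjusted p = 0.0246) and hspb6 lower (−1.50, adjusted p = 0.0302), with 18.9% of all genes called higher and 12.9% lower. Without T60D-1 it called hspd1 (1.35, adjusted p = 0.0108) and hspe1 (1.11, adjusted p = 0.0263) higher and serpinh1b lower (−2.29, adjusted p = 0.00623), with 20.0% of all genes higher and 12.1% lower. In both cases the heated libraries that were left were rich in oocyte markers. At 45 dpf no member was called when T45D-2 was left out, although 248 of 20842 genes were called higher and 1416 lower.

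To ask whether the difference between heated and control fish changed with time, the differences at 45 and 60 dpf were set against that at 35 dpf in 1 fit of 18 libraries. No member passed the threshold in edgeR, which called 0% of all genes for 45 against 35 dpf and 0.00450%, a single gene, for 60 against 35 dpf. No member passed in DESeq2 either, which called 0.0764% of all genes higher and 0.00764% lower at 45 dpf and 2.52% and 0.558% at 60 dpf. By edgeR 0 members were at an unadjusted p of 0.05 or less for 60 against 35 dpf, beside 7.35% of all genes higher and 2.93% lower. For 45 against 35 dpf 1 member was, namely hspb6, whose log2 difference was higher by 3.27 ± 1.21 (SE, edgeR; adjusted p = 0.608), beside 3.40% of all genes in that direction. For serpinh1b the change was −1.92 ± 0.94 to 45 dpf and −1.80 ± 0.94 to 60 dpf (SE, edgeR; adjusted p = 0.608 and 0.551). For hspd1 it was −0.32 ± 0.51 and 0.08 ± 0.51 (SE, edgeR; adjusted p = 0.865 and 0.991), and for hspe1 0.26 ± 0.38 and 0.55 ± 0.38 (SE, edgeR; adjusted p = 0.845 and 0.702).

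In unheated fish the levels differed with age for 4 of the 10 genes (edgeR F test over the 4 control groups, adjusted p of 0.05 or less), against 50.0% of all genes tested. DESeq2 called 5 of the 10, against 47.7% of all genes, so that the members' share was near that of all genes in both tools. hspb6 was 27.9 ± 3.2, 14.3 ± 3.6, 24.2 ± 1.6 and 34.3 ± 7.6 CPM at 25, 35, 45 and 60 dpf (SD, n = 3 each; edgeR adjusted p = 0.00451), lowest at 35 dpf. hspb8 was 19.5 ± 1.2, 32.5 ± 6.7, 31.6 ± 3.4 and 20.1 ± 5.0 CPM (adjusted p = 0.0136, edgeR, n = 3 each), with its higher levels at the middle ages. hspe1 was 64.1 ± 4.4, 62.2 ± 2.0, 48.0 ± 3.1 and 45.7 ± 6.8 CPM (adjusted p = 0.0140, edgeR, n = 3 each), lower at the later ages. serpinh1b was 98.9 ± 44.6, 97.6 ± 6.1, 180 ± 5.1 and 142 ± 29.7 CPM (adjusted p = 0.0342, edgeR, n = 3 each), highest at 45 dpf. hspd1 missed the threshold in edgeR (96.4 ± 11.4, 80.5 ± 22.9, 71.5 ± 0.5 and 62.7 ± 7.0 CPM; adjusted p = 0.0531, n = 3 each) and passed it in DESeq2 (adjusted p = 0.00763). hspb1 was 27.2 ± 6.7, 48.0 ± 12.9, 35.4 ± 4.7 and 34.0 ± 9.8 CPM at the same ages (SD, n = 3 each; edgeR adjusted p = 0.112), and the adjusted p of hspb2, hspb7, hspb11 and hspb15 was 0.329, 0.245, 0.137 and 0.319 (edgeR). serpinh1b was past the threshold only by a narrow margin, and leaving out any 1 library other than C25D-1, C60D-1 or C60D-2 took it to adjusted p-values of 0.0545 to 0.0808. Tissue markers differed between these ages too. The sums of 13 bone and scale markers were 205 to 367 CPM in C25D, 1338 to 4761 CPM in C35D, 5824 to 8123 CPM in C45D and 735 to 8947 CPM in C60D, with at most 1 of the 13 at 0 in a library, and C60D lacked lens markers and was low in liver markers. Their part in the age differences was not tested. With counts scaled to library size alone, only hspb6 of the 10 passed the threshold, beside 36.7% of all genes. Across T35D, T45D and T60D no member passed in either tool, with 0% of all genes called in edgeR and 0.139% in DESeq2, and hspb6 alone was at or under the unadjusted limit there, beside 2.93% of all genes.

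The 10 genes fell into sets that varied together over the 21 libraries, which share differences in tissue content and scaling, so that these correlations are a description. hspb2 and hspb8 had a Pearson r of log2 CPM of 0.84, hspb7 and hspb8 of 0.80, and hspb6 and hspb8 of 0.78. hspb7 ran opposite to hspd1 with an r of −0.79 and to hspe1 with −0.78. hspb1 stood between, with an r of 0.55 with hspb8 and 0.05 with hspd1. After the group means were removed, hspb1 and hspb8 had an r of 0.94, and serpinh1b and hspb8 one of 0.82, so that within groups serpinh1b and hspb1 ran with the muscle-associated genes, while hspd1 and hspe1 had an r of 0.88.

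**Figure D5:**
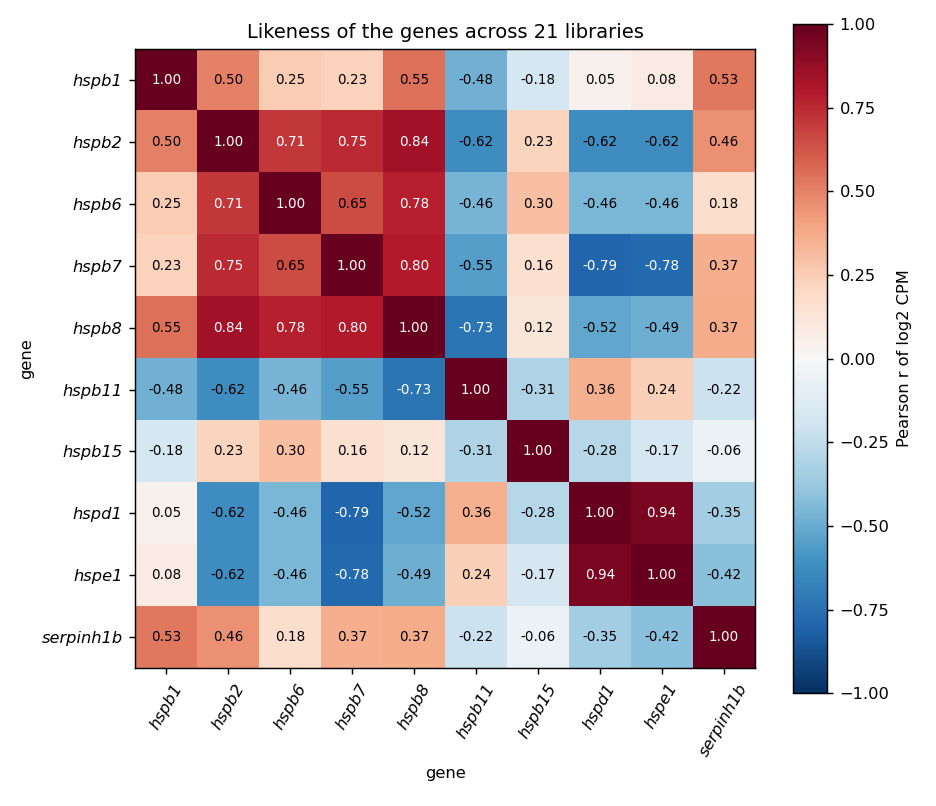
Pearson r of log2 CPM between each pair of the 10 genes over 21 libraries, red for positive and blue for negative values. The block of hspb2, hspb6, hspb7 and hspb8 (0.65 to 0.84) and the pair hspd1 and hspe1 (0.94) stand out, with negative values between them.

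Among all genes with a mean of at least 1 CPM, those most like each member over the 21 libraries were named by their Pearson r. For hspb2 they were chrne and chrna1, which encode subunits of the muscle acetylcholine receptor, and si:ch211-51c14.1 (r = 0.98, 0.98 and 0.97). For hspb8 they were klhl40a, clpxb and limk1b (r = 0.96, 0.95 and 0.94), for hspb7 LOC100332446, plekha2 and smtnl (r = 0.95, 0.94 and 0.94) and for hspb6 ppp1r3ab, reps2 and slc4a2a (r = 0.89, 0.87 and 0.87). For hspd1 they were tubb4b, prpf38b and ctps1a (r = 0.97, 0.96 and 0.96), and for hspe1 rab5if, polr3d and sdf2 (r = 0.96, 0.96 and 0.95). For hspb11 the genes were cfap20, asb6 and drc8 (r = 0.91, 0.90 and 0.90), for serpinh1b zgc:173713, si:ch211-76l23.4 and the unnamed gene 100535115 (r = 0.84, 0.82 and 0.82), for hspb1 zgc:195075, slc25a10a and trim109 (r = 0.80, 0.78 and 0.77) and for hspb15 LOC100151335 and si:ch1073-429i10.1 (r = 0.69 and 0.67).

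The members were read beside other genes of their pathways, by counts at an unadjusted p of 0.05 or less in edgeR, where 15.8% of all genes were higher and 8.33% lower at 35 dpf, 5.26% and 10.5% at 45 dpf and 16.1% and 9.53% at 60 dpf. With library size alone these shares were 8.45% and 8.90%, 0.507% and 18.2%, and 19.3% and 5.12%, and several of the counts depend on this scaling. Of 33 tested genes of mitochondrial chaperones, import and proteases, 1 was higher and 1 lower at an unadjusted p of 0.05 or less at 35 dpf, and their median log2 value was 0.42. At 45 dpf 6 of 34 were higher and 0 lower (median 0.55), and at 60 dpf 10 of 33 were higher and 5 lower (median 0.58), with 0 past the adjusted threshold at any age. With library size alone 0 were higher and 1 lower at 45 dpf (median 0.04), and 13 higher and 0 lower at 60 dpf. Of this list, lonp1, tomm20a and hscb were named for the largest absolute values at 35 dpf. lonp1, the matrix protease, had log2 fold changes of 1.45 ± 0.55, 0.92 ± 0.45 and 1.12 ± 0.39 at the 3 ages (SE, edgeR; adjusted p = 0.194, 0.355 and 0.160). tomm20a, an import receptor, had 1.41, 0.80 and 1.04, and hscb, a chaperone of iron-sulfur cluster assembly, 1.04, 0.50 and 1.23 (edgeR adjusted p from 0.152 to 0.685). Genes of the respiratory chain and citrate cycle had medians of −0.38, 0.57 and −0.79, with 1 of 39 higher and 1 lower, 0 higher and 1 lower of 39, and 0 higher and 20 lower of 38 at that unadjusted p, below the median of all genes at 35 and 60 dpf and above it at 45 dpf. With library size alone 6 of the 38 were lower at 60 dpf, and the median at 45 dpf was −0.14, where that of all genes was −0.43. cox5b2, a subunit of cytochrome oxidase, had log2 fold changes of −1.42, 0.70 and −1.26, vdac1, the outer membrane channel, 1.11, 0.26 and 0.46, and uqcrc1, a core subunit of complex III, −0.70, 0.53 and −0.79 (edgeR adjusted p from 0.145 to 0.746).

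For serpinh1b the neighbouring pathways were collagen folding and the fibrillar collagens. Of 27 tested genes of collagen folding and modification, 0 were higher and 3 lower at 35 dpf at an unadjusted p of 0.05 or less (median log2 fold change −0.68), 0 higher and 1 lower at 45 dpf (−0.25), and 1 higher and 4 lower at 60 dpf (−0.92). All 15 fibrillar collagen genes had values below 0 at 35 dpf, with a median of −0.67, where serpinh1b was at 1.00, and their medians at 45 and 60 dpf were 0.06 and −1.14. With library size alone all 15 were below 0 at 45 dpf as well, with a median of −0.72 and 6 of them lower at that p, and 10 of the 27 folding genes were lower there, with a median of −0.96. col27a1a had log2 fold changes of −1.83, −0.22 and −0.85, col11a1b −1.33, 0.28 and −1.10, and col5a2a −1.26, 0.06 and −1.37 (edgeR adjusted p from 0.180 to 0.960). Among the folding genes p4ha3, a prolyl hydroxylase subunit, had −2.78, −0.19 and 2.38, creb3l1, a transcription factor of secretory cells, −1.37, −0.25 and −1.24, and colgalt1b, a collagen galactosyltransferase, −1.23, −1.63 and −0.53 (edgeR adjusted p from 0.192 to 0.897).

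Of 42 tested genes of the cytosolic heat shock response, 18 were higher and 0 lower at 35 dpf at an unadjusted p of 0.05 or less (median log2 fold change 1.06), 9 higher and 2 lower of 43 at 45 dpf (0.80), and 12 higher and 0 lower of 42 at 60 dpf (0.40). With library size alone 10 were higher at 35 dpf, 3 at 45 dpf (median 0.26) and 13 at 60 dpf. hspa8b, an Hsp70 family gene, had a log2 fold change of 4.33 ± 0.86 at 35 dpf, hsp90aa1.2, a cytosolic Hsp90 gene, 3.13 ± 0.49, and dnajb1b, a cofactor of Hsp70, 2.86 ± 0.90 (SE, edgeR; adjusted p = 0.192 each). These 3 genes were named because their absolute values were the largest of the list at 35 dpf, so they are not set against the members. At 45 dpf their log2 fold changes were 0.15, −0.72 and 1.17 and at 60 dpf 0.56, 0.37 and 1.27 (edgeR adjusted p from 0.159 to 0.910). Of the other 6 small heat shock genes, the crystallin genes cryaa and cryaba had 1.15 and 1.93 at 35 dpf and −3.63 and −3.59 at 45 dpf (edgeR adjusted p from 0.279 to 0.625), the age at which T45D-1 and T45D-3 lacked lens markers. The crystallin gene cryabb had 0.40, −2.26 and 1.85 at the 3 ages (edgeR adjusted p = 0.691, 0.213 and 0.265). It had 0.99 to 1.14 CPM in C25D, which had lens markers, and 1.19 to 1.98 CPM in C60D, which lacked them. Its highest levels, 7.74 to 14.1 CPM in C45D and 14.3 CPM in T60D-1, were in libraries with lens markers. T45D-1 and T45D-3, which lacked them, had 0.99 and 2.03 CPM. The part of lens content in these values was not tested. hspb3, a muscle gene, had −1.39, 1.02 and −1.58 at the 3 ages, in the same directions as hspb2 (edgeR adjusted p from 0.211 to 0.544), and hspb12 had −1.58 at 35 dpf (adjusted p = 0.283, edgeR). hspb9 had 0.33, 4.29 and −0.72 (edgeR adjusted p = 0.762, 0.240 and 0.471), its 45 dpf value resting on 688 CPM in T45D-3, against 65.8 and 19.8 CPM in the other T45D libraries and 8.97 to 19.9 CPM in C45D.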

How the data were processed

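Whole-fish RNA of 21 pooled samples was sequenced by the authors on a BGISEQ-500 as single-end reads. Per the study's methods the authors filtered reads with SOAPnuke, aligned them with HISAT2 2.0.4 and Bowtie2 2.2.5 against GRCz11, and quantified genes with RSEM 1.2.12. The deposited table holds expected counts (RSEM estimates, not normalized) and, beside them, FPKM values (deposited per transcript length and 1000000 mapped reads); the depth of each library is its sum of expected counts. Other columns of gene annotation were used for no value, and coordinates and sequences were not used here. Gene numbers were paired with symbols by the RefSeq gene list (assembly GRCz12tu), which named 24087 of 26225 genes.

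Expected counts were rounded to whole numbers and fitted over all genes with edgeR 4.0.16 (R 4.3.3; TMM factors, filterByExpr, quasi-likelihood F test, Benjamini-Hochberg adjustment, threshold 0.05), one pair of groups of 3 libraries at a time. Changes of the heat difference over time were fitted in 18 libraries, and ages by F tests within the 12 control and the 9 heated libraries. The standard error is the log2 fold change divided by the square root of F. Levels are CPM with TMM factors of all 21 libraries, and log2 CPM used a prior count of 0.5. No replicates were identical beyond sampling noise (lowest chi-square per degree of freedom 10.2). Counting error alone limits values near 3 counts. Alternatives were DESeq2 1.42.0, its size factors, library size alone, no filter, at least 10 counts in every library, a replicate block, one fit of all libraries, the read yield class as covariate, and leaving out each library. The fits without libraries over 10000 CPM of oocyte markers or under 20 CPM of lens markers, and the scalings of overlap counts were chosen after seeing the data.

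The members and gene lists were chosen with earlier results of these data known. Named genes were the 10 members, the 3 tested genes of each pathway list with the largest absolute log2 fold change at 35 dpf, serpinh1a and the other small heat shock genes, and the 3 genes most correlated with each member, of which 1 is not reported here. Marker lists are given by their sums only.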

Additional observations from a re-analysis of the deposited data

Results flagged for a closer look

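serpinh1b showed opposite differences at 35 and 45 dpf. Its log2 fold change was 1.00 in T35D over C35D, where every heated library lay above every control, and −1.06 in T45D over C45D, where every heated library lay below every control. The test of the difference between these ages did not pass the threshold (−1.92, edgeR adjusted p = 0.608). The separation at 35 dpf held on TMM-scaled CPM, where 10.0% of all genes tested lay higher, but not with DESeq2 size factors, library size alone or FPKM. That at 45 dpf held on all 4 scales, named in the same order. On these 19.3%, 16.4%, 34.8% and 34.2% of all genes tested lay lower without overlap at 45 dpf. The ratio of serpinh1b to its paralog serpinh1a, read within each library, was 4.84 to 8.15 in T35D, against 2.19 to 3.09 in C35D, and 2.07 to 2.65 in T45D, against 3.52 to 4.23 in C45D. In C25D this ratio was 3.72 to 6.86, which overlapped T35D. The 8.15 was that of T35D-2, where serpinh1a was low and serpinh1b in FPKM lay within the range of C35D.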

How the results depend on the processing

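Of the log2 fold changes and adjusted p-values of single members, 460 kept their direction and side of the threshold under settings other than leaving out 1 library, 13 passed it newly, 3 no longer passed it and 19 changed sign, and 686, 11, 9 and 32 did so when 1 library was left out. The number of members called was 0 to 2 at 35 dpf, 0 at 45 dpf and 0 to 3 at 60 dpf when libraries were left out in turn, and 3 to 5 across control ages. The 2 and the 3 came without T35D-1 and without T60D-1, beside 18.9% of all genes higher and 12.9% lower and 20.0% and 12.1%. At 45 dpf the fit without T45D-2 called 248 of 20842 genes higher and 1416 lower. At 60 dpf the fit without T60D-2 called 408 of 19927 genes higher and 16 lower, with no member among them. Across control ages 8190 of 22114 to 11331 of 22084 genes were called in these fits. The number became 1 at 60 dpf with DESeq2, beside 9.76% of all genes higher and 2.48% lower. In one fit of all libraries it became 2, beside 8.68% and 5.37%. Without the libraries rich in oocyte markers it became 4 at 45 dpf, beside 4.70% of all genes higher and 7.26% lower. At 60 dpf this setting left T60D-1 alone for the heated fish, so no count is given for it here. The log2 fold change of hspe1 was 0.76 there. Across control ages it became 1 with library size only, beside 36.7% of all genes. Labels share replicate numbers, but same-numbered heated and control libraries had deviations correlated between −0.435 and 0.445, with 2 of 9 pairs over 0.1. The main test therefore took samples as unpaired. Differences in tissue content enter these deviations, so the correlations cannot exclude a pairing. The replicate block gave 0 members in each heat comparison and 6 across control ages, beside 46.3% of all genes, adding hspb1 (adjusted p = 0.0108) and hspb11 (0.0268).

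All values that changed sign missed the threshold, and the cause was not tested. With library size only, hspb2 at 45 dpf was −0.0082, hspb11 at 60 dpf 0.046, and for 45 against 35 dpf hspb1 was −0.84 and hspe1 −0.31. With DESeq2 and with its size factors, hspb15 at 45 dpf was 0.084 and 0.068, and hspd1 for 60 against 35 dpf −0.0029 and −0.0062. Without the libraries rich in oocyte markers, hspb11 and hspe1 at 35 dpf were −0.19 and −0.085, hspb7 and hspb15 at 45 dpf 0.15 and 0.42, and hspb6, hspb8 and serpinh1b at 60 dpf 0.67, 0.70 and 0.17. Without the libraries that lacked lens markers, hspb1, hspb2, hspb8 and hspb11 at 45 dpf were −1.10, −1.22, −1.11 and 0.43. With 1 library left out, the log2 fold change at 45 dpf ranged from −0.69 to 0.17 for hspb7, −0.76 to 0.20 for hspb11 and −0.26 to 0.44 for hspb15. At 60 dpf it ranged from −0.29 to 0.68 for hspb1, −1.53 to 0.23 for hspb6, −1.44 to 0.23 for hspb8 and −0.47 to 0.11 for hspb11. The change to 45 dpf ranged from −1.17 to 1.13 for hspb1, −0.54 to 2.35 for hspb15, −0.64 to 0.034 for hspd1 and −0.0059 to 0.40 for hspe1. The change to 60 dpf ranged from −0.78 to 0.30 for hspb2, −0.34 to 1.31 for hspb6, −0.39 to 1.41 for hspb7, −0.058 to 1.75 for hspb8, −0.16 to 2.65 for hspb15 and −0.24 to 0.43 for hspd1. Depth limits hspb7, hspb11 and hspb15, whose lowest libraries held 1, 4 and 4 counts.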
